A study of Mus musculus with 12 samples.

Results

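The comparison described here asks whether cold changed gene expression differently in brown adipose tissue of mice with and without Sel1L in adipocytes. It is 1 contrast, the difference between 4 °C and room temperature in Sel1L-deficient mice minus the same difference in wildtype mice, called the interaction. All 12 arrays of the series enter it, in 4 groups of 3 taken from the sample titles, over the 23521 of 41345 probe sets that carry exactly 1 gene symbol. These represent 22180 genes. The interaction is on the log2 scale, so that 1 unit is a 2-fold difference between the fold changes in the cold of the genotypes.

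The wildtype groups were Sel1L f/f mice on the C57BL/6J background, without Cre but with the floxed alleles, at room temperature or at 4 °C. The deficient groups, named Sel1LAdipCre, carried the same floxed alleles and an Adiponectin-Cre transgene (Adipoq-cre), on the same background and at the same temperatures. All 4 groups had been fasted for 5 h, and the cold groups spent that fast at 4 °C. Adiponectin-Cre acts in adipocytes, brown and white, so that other cells of the tissue and other tissues without adipocytes keep the gene. The labels give no age for the animals.

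Sel1L holds together the complex of the ubiquitin ligase Hrd1 that carries out ER-associated degradation (ERAD). This process moves misfolded proteins out of the endoplasmic reticulum (ER) for destruction by the proteasome. Misfolded proteins that stay in the ER activate the unfolded protein response (UPR), whose sensors are Ire1, Perk and Atf6 and whose targets include ER chaperones, folding enzymes and ERAD components. Brown adipocytes burn fat to make heat through Ucp1 in their mitochondria, and cold drives this through sympathetic nerves and cAMP. The series names thermogenesis, contacts between ER and mitochondria, and mitochondrial dynamics as its subject.

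The library of wildtype room-temperature replicate 3 is labelled room temperature in its title and temperature characteristic but 4 °C in its source name. By Euclidean distance over the probe sets used it lay nearest to wildtype room-temperature replicate 1, and each of the 12 arrays lay nearest to an array of its own group. Counts are also given without wildtype room-temperature replicate 3 and with it regrouped to 4 °C. Sel1l itself read 7.37, 6.96 and 7.23 at room temperature and 6.99, 6.69 and 7.04 at 4 °C in wildtype, and 6.18, 6.09 and 5.92 at room temperature and 6.90, 6.73 and 6.54 at 4 °C in deficient arrays. The groups did not overlap between genotypes at room temperature but did at 4 °C, so that Sel1l does not check the genotype labels of the cold arrays. The position of its probes relative to the deleted part is not used here, so that its level is a limited check at room temperature too. In what follows, deficient stands for the arrays labelled Sel1L-deficient. The defining markers of brown adipocytes were high on all arrays, with a mean over 12 genes of 10.10 to 11.00 on the log2 scale against array medians of 2.03 to 2.09. The mean of 19 skeletal muscle markers varied from 6.03 to 6.97 in wildtype at room temperature, 4.58 to 7.60 in wildtype at 4 °C, 2.79 to 5.95 in deficient arrays at room temperature and 2.53 to 6.22 at 4 °C. Its interaction was 1.30, and 0 of the 19 markers passed limma's test (0 at an unadjusted p under 0.05), so that the counts are also given with this score in the fit. Of the marker lists of macrophages, lymphocytes, granulocytes, endothelium, fibroblasts, nerve, red blood cells and white adipocytes limma called 0 genes, with at most 3 of a list at an unadjusted p under 0.05. At that unadjusted threshold 9.77% of all probe sets passed. In such bulk tissue, fewer cells of a type and less RNA per cell cannot be told apart.

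The cold difference differed between the genotypes for 72 of 23521 probe sets (0.306%), at a Benjamini-Hochberg adjusted p under 0.05 in limma's moderated test. For 54 (0.23%) the interaction was higher, meaning that the cold difference was more positive in deficient arrays, and for 18 (0.0765%) it was lower. The former were led by Prdm15, Npas2, Rbm15b and Krt23 and held 7 genes for ER folding and 3 for ERAD. The latter were led by Plk3, Atf3, Ttpa, Mavs and Ppara. At an unadjusted p under 0.05 there were 2298 probe sets, 1208 higher (5.14%) and 1090 lower (4.63%). In the same fit the cold difference passed for 2606 probe sets (11.1%) in wildtype and 2123 (9.03%) in deficient arrays, the genotype difference for 404 (1.72%) at room temperature and 1365 (5.8%) at 4 °C, and the median standard error was 0.20 for the interaction against 0.14 for a cold difference. The count of calls was 38 without wildtype room-temperature replicate 3 and 17 with that array moved to 4 °C. Between 21 (without deficient 4 °C replicate 2) and 123 (without wildtype 4 °C replicate 3) probe sets were called with 1 array left out. The 21 genes called with every single array left out were Prdm15, Npas2, Krt23, Il23a, Stambpl1, Plscr2, Fkbp11, Ccdc149, Jpt2, Tle1, Porcn, Creb3l2, Hspa13, Tbcb, Tbrg1, Stx6, Scfd2, Elmod2, Atf5, Mavs and Plk3. With wildtype room-temperature replicate 3 moved to 4 °C, 57 of the 72 lost their call, all but Prdm15, Npas2, Krt23, Il23a, Stambpl1, Plscr2, Fkbp11, Jpt2, Osgin2, Dnajb11, Hspa13, Stx6, Scfd2, Ppara and Mavs. If the title of that array is right, the move puts a room-temperature array among the cold ones. This alone widens the spread of genes that cold changed in wildtype, so that a loss there cannot tell a weak call from the regrouping. With the muscle score as a covariate 48 probe sets were called and 28 of the 72 lost their call. All 72 kept their sign under every alternative run.

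**Figure D1:**
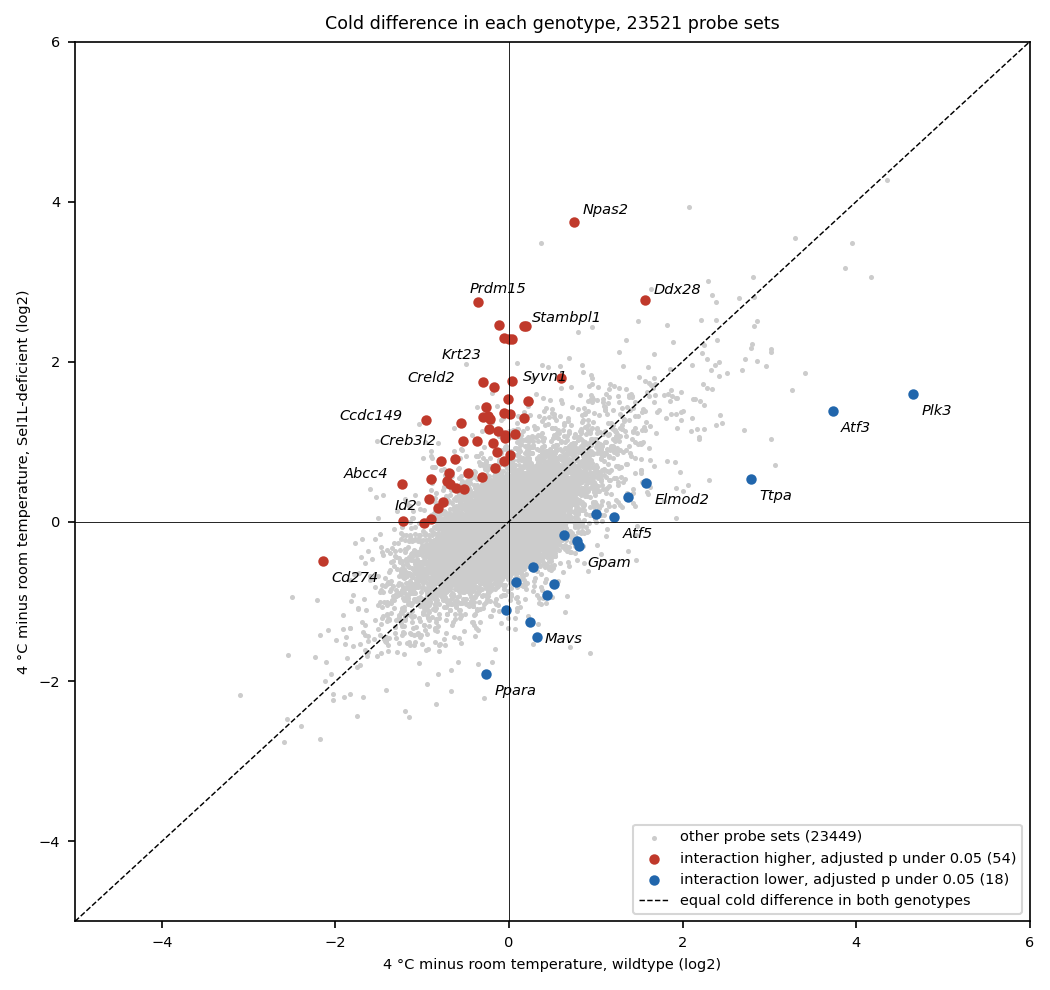
Difference between 4 °C and room temperature in wildtype (horizontal, log2) and in deficient arrays (vertical, log2), 1 point per probe set, with the dashed line marking equal differences. The 54 probe sets with a higher interaction (red) lie above the line, most near 0 or below 0 in wildtype, and the 18 with a lower interaction (blue) lie below it, with Plk3 (4.66 in wildtype, 1.60 in deficient arrays) farthest.

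What the called genes did within each genotype is a description, since the same arrays chose them. Of the 54 probe sets with a higher interaction, 43 were called up by cold in deficient arrays, where the background is 4.32%, and 19 were called down in wildtype (background 6.23%). In 44 of the 54 every deficient 4 °C array was above the other 9 arrays, as in 3.65% of all probe sets, and in 20 every wildtype 4 °C array was below the other 9 (2.46% of all). The genotype difference of these 54 was called up for 18 at room temperature (background 1.29%), called down for 4 (0.429%), and called up for 51 at 4 °C (3.61%). Of the 18 with a lower interaction, 11 were called up by cold in wildtype (4.85%) and 8 called down in deficient arrays (4.7%). In 9 of the 18 the deficient 4 °C arrays were below the other 9 (3.01% of all), in 9 the wildtype 4 °C arrays were above the other 9 (2.34%), and the genotype difference at 4 °C was called down for 16 (2.19%). The size of the interaction ran from 0.82 to 3.11 (median 1.36) among the higher and from 0.80 to 3.06 (median 1.14) among the lower. The calls nearest the threshold were Tlcd4, Cd274 and Syvn1 (adjusted p 0.0468, 0.0474 and 0.0492), and the nearest that missed it were Kyat1 and Ankrd50 (both 0.0507) and St3gal4 (0.051).

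Promoter sequence is shown for genes whose interaction was higher and whose promoter holds an ER stress response element, a motif bound by the UPR factors Atf6 and Xbp1 together with NF-Y. The 250 bases before the RefSeq start of transcription (GRCm38.p6) were searched on both strands for CCAAT followed by CCACG after any 9 bases (ERSE) and for ATTGG followed by CCACG after any 1 base (ERSE-II). Of the genes called higher, 46 matched a promoter, and ERSE was present in Creld2, Ero1b, Syvn1 and Dnajc3 (4 of 46) and ERSE-II in Herpud1 (1 of 46), against 35 of 27025 genes (0.13%) and 10 of 27025 (0.037%). None of the 17 matched genes called lower held either. All 7 promoters shown are on the plus strand, 5′ to 3′, with the motif in capitals, and a motif on the minus strand appears as its reverse complement. The positions are chr19:6046326-6046575 for Syvn1, chr15:88819396-88819645 for Creld2, chr13:12565633-12565882 for Ero1b, chr14:118937682-118937931 for Dnajc3, chr8:94386179-94386428 for Herpud1, chr2:34771840-34772089 for Hspa5 and chr10:75893148-75893397 for Derl3. Hspa5 and Derl3 also hold ERSE but their interactions did not pass the test.
Syvn1: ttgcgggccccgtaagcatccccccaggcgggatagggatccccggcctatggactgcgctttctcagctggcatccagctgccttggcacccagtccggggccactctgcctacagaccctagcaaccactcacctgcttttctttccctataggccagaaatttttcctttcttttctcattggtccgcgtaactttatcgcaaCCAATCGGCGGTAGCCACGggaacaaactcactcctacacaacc
Creld2: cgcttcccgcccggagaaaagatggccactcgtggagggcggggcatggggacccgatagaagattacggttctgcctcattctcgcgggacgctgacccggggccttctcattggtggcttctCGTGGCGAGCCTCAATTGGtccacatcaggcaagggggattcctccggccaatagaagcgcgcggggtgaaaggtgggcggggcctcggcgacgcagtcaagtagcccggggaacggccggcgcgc
Ero1b: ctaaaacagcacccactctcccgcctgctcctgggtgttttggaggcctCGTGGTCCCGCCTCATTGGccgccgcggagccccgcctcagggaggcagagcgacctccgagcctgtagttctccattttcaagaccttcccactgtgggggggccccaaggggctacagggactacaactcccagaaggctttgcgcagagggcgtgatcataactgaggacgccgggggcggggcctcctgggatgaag
Dnajc3: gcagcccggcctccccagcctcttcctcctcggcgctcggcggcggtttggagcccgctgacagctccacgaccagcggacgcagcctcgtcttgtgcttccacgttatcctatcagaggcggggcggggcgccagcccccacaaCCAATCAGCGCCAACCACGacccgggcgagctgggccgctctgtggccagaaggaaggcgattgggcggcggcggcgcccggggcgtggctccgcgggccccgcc
Herpud1: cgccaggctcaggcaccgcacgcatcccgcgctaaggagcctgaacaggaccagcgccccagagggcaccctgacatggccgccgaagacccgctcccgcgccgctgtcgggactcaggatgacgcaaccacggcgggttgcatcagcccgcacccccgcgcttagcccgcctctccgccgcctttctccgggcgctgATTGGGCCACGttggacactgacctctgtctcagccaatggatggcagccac
Hspa5: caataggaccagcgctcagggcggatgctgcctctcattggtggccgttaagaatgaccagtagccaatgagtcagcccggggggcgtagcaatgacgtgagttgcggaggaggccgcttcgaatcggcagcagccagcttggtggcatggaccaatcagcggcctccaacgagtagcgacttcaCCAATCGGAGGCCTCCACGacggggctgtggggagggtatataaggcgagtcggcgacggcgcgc
Derl3: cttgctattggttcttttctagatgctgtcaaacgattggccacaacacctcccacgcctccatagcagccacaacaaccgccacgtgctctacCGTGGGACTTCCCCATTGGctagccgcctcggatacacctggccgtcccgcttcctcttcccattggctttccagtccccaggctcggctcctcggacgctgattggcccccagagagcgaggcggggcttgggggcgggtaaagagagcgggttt
The motif starts 44 bases before the start of transcription in Syvn1, 126 in Creld2, 201 in Ero1b, 105 in Dnajc3, 52 in Herpud1, 65 in Hspa5 and 156 in Derl3. ERSE was also found in Pdia6, Calr, Hsp90b1 and Canx, making 8 of the 24 matched genes of the ER folding list, and none of these 4 interactions was called. A match describes these letters only and says nothing of binding. Further motifs were searched in the same windows. The UPRE core TGACGTGG (0.603% of genes) was found in 1 of 46 genes called higher and 0 of 17 called lower. It was in Ccdc149, before 1 of its RefSeq starts but not before another. The CRE TGACGTCA (1.77%) was found in 0 of 46 and 1 of 17, Tbcc. The amino acid response element TGATGCAAT (0.192%) was found in 0 of 46 and 1 of 17, Angptl8. Single matches among so few genes do not give a reliable share.

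Genes of ER folding as a group had a more positive cold difference in deficient arrays. Of 28 measured members of the list of ER chaperones and folding enzymes, 7 were called higher and 0 lower. The shares called over all probe sets were 0.23% and 0.0765%. At an unadjusted p under 0.05, 21 of the list had a higher interaction (5.14% of all probe sets), and all 28 point estimates were above 0. The median interaction was 0.79, against -0.00060 over all 22180 genes. The list's median cold difference was -0.09 in wildtype and 0.53 in deficient arrays. These genes were already higher in deficient arrays at room temperature, by a median of 1.31, and at 4 °C by 2.28. The 7 calls became 2 without wildtype room-temperature replicate 3, 2 with that array moved, 1 without deficient 4 °C replicate 2 and 3 with the muscle score in the fit, while 26 to 28 of the 28 estimates remained above 0. Members of a list were read on the same arrays and are not independent, so that a shared sign is a description. Of the 19 skeletal muscle markers 18 were also above 0 (median 1.39), with 0 higher at an unadjusted p under 0.05.

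Fkbp11, a peptidyl-prolyl isomerase of the ER, read 2.30, 1.86 and 2.06 at room temperature and 2.53, 1.86 and 2.42 at 4 °C in wildtype, and 4.12, 3.23 and 3.70 at room temperature and 6.26, 6.08 and 6.07 at 4 °C in deficient arrays. Wildtype arrays stayed low at both temperatures, and the deficient groups overlapped neither with these nor with each other. Its interaction was 2.25 ± 0.31 (adjusted p = 0.0111), 5.47-fold up in the cold in deficient arrays, and the call was kept with any 1 array left out. The wildtype arrays of Fkbp11 lay near the array medians of 2.03 to 2.09. Its wildtype difference may therefore be compressed, and the interaction does not give a reliable size. Creld2, an ER disulfide isomerase family member induced by ER stress, read 5.82, 5.99 and 5.95 at room temperature and 5.73, 5.72 and 5.41 at 4 °C in wildtype, and 8.14, 8.78 and 7.69 at room temperature and 9.55, 10.23 and 10.07 at 4 °C in deficient arrays. All 3 deficient cold arrays were above all other arrays. Creld2 had an interaction of 2.05 ± 0.34 (adjusted p = 0.0294), kept only without wildtype 4 °C replicate 3, deficient room-temperature replicate 2 or 3, or deficient 4 °C replicate 1 (adjusted p up to 0.099 otherwise). Ero1b, the oxidase that recharges protein disulfide isomerases, read 4.17, 4.34 and 3.97 at room temperature and 3.95, 3.39 and 3.46 at 4 °C in wildtype, and 5.59, 5.89 and 4.97 at room temperature and 6.82, 6.73 and 6.58 at 4 °C in deficient arrays. Wildtype values were lower at 4 °C and deficient values higher, and the interaction of 1.78 ± 0.30 (adjusted p = 0.0311) was kept only without wildtype 4 °C replicate 1 or 3 or deficient room-temperature replicate 2 or 3 (adjusted p up to 0.099 otherwise).

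The called J-domain partners of the chaperone BiP were Dnajc3 and Dnajb11. Dnajc3, which also inhibits the sensor Perk, read 7.57, 7.73 and 7.73 at room temperature and 7.52, 7.60 and 7.21 at 4 °C in wildtype, and 9.41, 9.66 and 8.78 at room temperature and 10.70, 10.75 and 10.39 at 4 °C in deficient arrays. Deficient cold arrays lay above every other array and the wildtype groups overlapped. The interaction was 1.56 ± 0.28 (adjusted p = 0.0391), kept only without deficient room-temperature replicate 2 or 3 (adjusted p up to 0.12 otherwise). Dnajb11 read 6.26, 6.18 and 5.95 at room temperature and 5.85, 6.18 and 6.18 at 4 °C in wildtype, and 7.93, 7.998 and 7.54 at room temperature and 9.14, 9.33 and 9.08 at 4 °C in deficient arrays. Wildtype groups overlapped and deficient groups did not, with an interaction of 1.42 ± 0.21 (adjusted p = 0.0169), lost without wildtype room-temperature replicate 1 or 2 or deficient 4 °C replicate 2 (adjusted p up to 0.0744). The disulfide isomerases P4hb and Pdia3, abundant folding enzymes, had smaller interactions of 0.87 ± 0.15 (adjusted p = 0.0311) and 0.82 ± 0.14 (adjusted p = 0.0391). P4hb was kept only without wildtype 4 °C replicate 3 or deficient room-temperature replicate 2 (adjusted p up to 0.099 otherwise). Pdia3 read 8.65, 8.69 and 8.56 at room temperature and 8.60, 8.48 and 8.64 at 4 °C in wildtype, and 10.23, 10.33 and 10.06 at room temperature and 10.95, 11.02 and 10.92 at 4 °C in deficient arrays, so that its deficient cold arrays were the highest and its wildtype groups overlapped. It was kept only without wildtype 4 °C replicate 3 or deficient room-temperature replicate 2 (adjusted p up to 0.12 otherwise). Hspa5, which encodes BiP, read 6.82, 6.83 and 6.89 at room temperature and 7.31, 7.31 and 7.13 at 4 °C in wildtype, and 8.91, 9.08 and 8.76 at room temperature and 9.68, 10.21 and 9.98 at 4 °C in deficient arrays. It was higher at 4 °C in both genotypes without overlap, by 0.41 in wildtype and 1.04 in deficient arrays, and the interaction of 0.63 ± 0.19 (adjusted p = 0.251) did not pass the test. Sdf2l1, a BiP cofactor, had 0.85 ± 0.28 (adjusted p = 0.301), Hyou1 1.19 ± 0.25 (adjusted p = 0.0795), Pdia5 1.79 ± 0.45 (adjusted p = 0.145) and Hsp90b1 0.43 ± 0.19 (adjusted p = 0.485), none of them called.

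**Figure D2:**
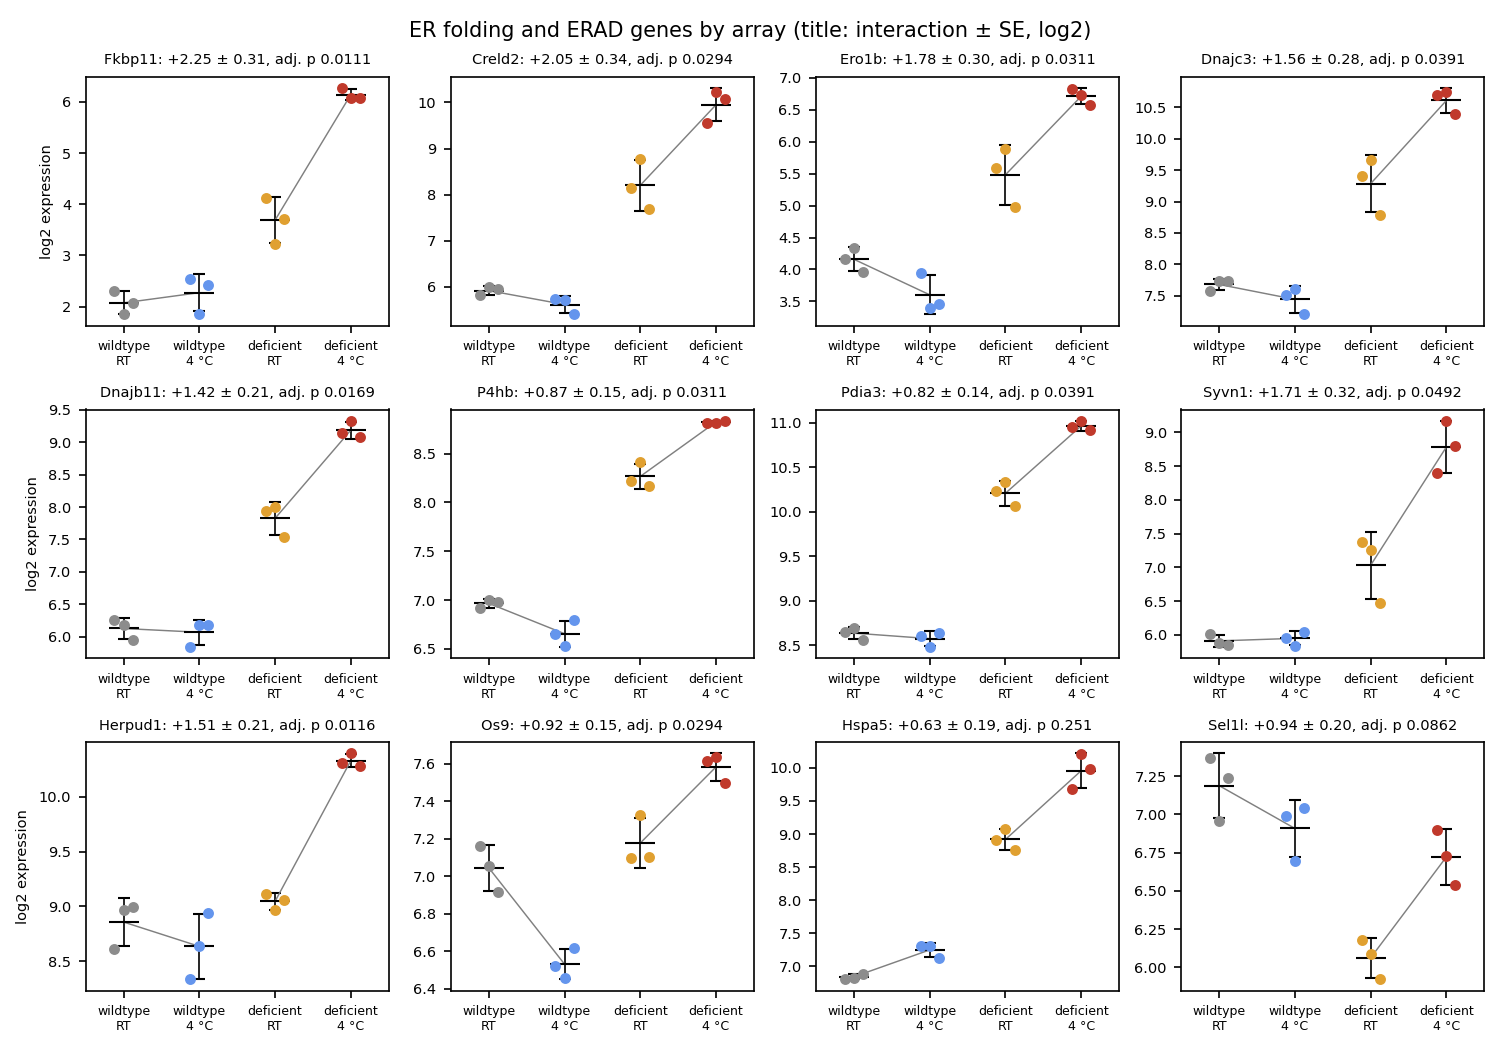
Log2 expression of 12 ER folding and ERAD genes on each array (points), with the group mean and SD (bars, n = 3), for wildtype and deficient arrays at room temperature (RT) and 4 °C. In Fkbp11, Creld2, Dnajc3, Dnajb11, Syvn1 and Herpud1 the line joining the group means is nearly flat or falls in wildtype and rises in deficient arrays, whereas in Hspa5 it rises in both.

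The ERAD machinery held 3 calls among 23 measured genes, all higher: Syvn1, Herpud1 and Os9. Over all probe sets 0.23% were called higher and 0.0765% lower. Of its members 18 had a point estimate above 0 and 5 below, and the median was 0.40. Syvn1 encodes Hrd1, the ligase that Sel1L binds. It read 6.01, 5.88 and 5.84 at room temperature and 5.96, 5.84 and 6.04 at 4 °C in wildtype, and 7.37, 7.26 and 6.46 at room temperature and 8.39, 9.17 and 8.79 at 4 °C in deficient arrays. Wildtype groups overlapped while the deficient groups did not, and the interaction was 1.71 ± 0.32 (adjusted p = 0.0492), kept only without deficient 4 °C replicate 1 (adjusted p up to 0.123 otherwise). Herpud1, which helps assemble the Hrd1 complex, read 8.61, 8.97 and 8.99 at room temperature and 8.33, 8.63 and 8.93 at 4 °C in wildtype, and 9.11, 8.96 and 9.06 at room temperature and 10.30, 10.40 and 10.28 at 4 °C in deficient arrays. The genotypes overlapped at room temperature, and the deficient cold arrays stood above all others. Its interaction was 1.51 ± 0.21 (adjusted p = 0.0116), lost without deficient 4 °C replicate 2 (adjusted p up to 0.0534). Os9, a lectin that hands misfolded glycoproteins to Sel1L and Hrd1, read 7.16, 7.05 and 6.92 at room temperature and 6.52, 6.45 and 6.62 at 4 °C in wildtype, and 7.10, 7.33 and 7.10 at room temperature and 7.62, 7.63 and 7.50 at 4 °C in deficient arrays. Cold was called down in wildtype (-0.51, adjusted p = 0.00883) and up in deficient arrays (0.41, adjusted p = 0.0354), with no overlap in either genotype. The interaction of 0.92 ± 0.15 (adjusted p = 0.0294) was kept only without wildtype room-temperature replicate 3, wildtype 4 °C replicate 3, or deficient room-temperature replicate 2 (adjusted p up to 0.099 otherwise). Sel1l, Derl3 (a Derlin of the same channel) and Selenos missed the threshold at 0.94 ± 0.20 (adjusted p = 0.0862), 1.00 ± 0.22 (adjusted p = 0.0878) and 0.84 ± 0.16 (adjusted p = 0.0601). Nploc4, a cofactor of the extracting ATPase Vcp, had the most negative estimate of the list, -0.38 ± 0.15 (adjusted p = 0.445). The list held 2 calls without wildtype room-temperature replicate 3, 0 with that array moved, 0 without deficient 4 °C replicate 2 and 1 with the muscle score in the fit, while 17 or 18 of the 23 estimates remained above 0.

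Of 15 measured genes on the list of UPR sensors and transcription factors, 2 were called higher and 0 lower, with a median of 0.30. The shares called over all probe sets were 0.23% and 0.0765%. Of the 2 calls Creb3l2 is a transcription factor, and Wfs1 is neither that nor a sensor. Creb3l2, an ER-anchored transcription factor that is released by proteolysis, read 5.44, 5.37 and 5.38 at room temperature and 5.01, 4.77 and 4.82 at 4 °C in wildtype, and 5.60, 5.65 and 5.46 at room temperature and 6.36, 6.64 and 6.71 at 4 °C in deficient arrays. Cold lowered it in all wildtype arrays and raised it in all deficient arrays relative to their room-temperature groups, without overlap. The interaction was 1.53 ± 0.16 (adjusted p = 0.00169), kept with any 1 array left out. Wfs1, an ER membrane protein mutated in Wolfram syndrome, read 5.20, 5.41 and 5.22 at room temperature and 4.62, 4.71 and 5.40 at 4 °C in wildtype, and 6.68, 6.48 and 6.70 at room temperature and 7.47, 7.67 and 7.75 at 4 °C in deficient arrays. Its wildtype cold arrays spread widely, with replicate 3 inside the room-temperature range, and the interaction of 1.38 ± 0.25 (adjusted p = 0.0468) was kept only without wildtype 4 °C replicate 3 (adjusted p up to 0.125 otherwise). Xbp1, the factor activated by Ire1, had 0.61 ± 0.20 (adjusted p = 0.285), and Ern1, which encodes Ire1, 0.79 ± 0.19 (adjusted p = 0.13). Eif2ak3, which encodes Perk, had 0.59 ± 0.19 (adjusted p = 0.293) and Atf6 0.30 ± 0.25 (adjusted p = 0.763), and these did not pass. The array does not tell spliced from unspliced Xbp1 here. This list held 0 calls with wildtype room-temperature replicate 3 moved to 4 °C, and without it or without deficient 4 °C replicate 2 it held 1.

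The lists for protein entry into the ER and for transport out of it held no call. At an unadjusted p under 0.05, 5.14% of all probe sets were higher and 4.63% lower. Of 33 genes of the translocon, glycosylation and signal peptidase, limma called 0 (16 higher and 0 lower at an unadjusted p under 0.05), with 30 estimates above 0 and a median of 0.39. Of 32 COPII and COPI transport genes it called 0 (11 higher and 2 lower unadjusted), with a median of 0.24. The nearest was Sec24d, a COPII cargo adaptor, which read 5.51, 5.36 and 5.58 at room temperature and 6.28, 6.37 and 5.96 at 4 °C in wildtype, and 7.10, 7.38 and 7.40 at room temperature and 8.90, 9.10 and 8.96 at 4 °C in deficient arrays. It was higher in the cold in both genotypes without overlap, with an interaction of 0.97 ± 0.19 (adjusted p = 0.0581).

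The largest called interactions belonged to genes outside these lists. Prdm15, a zinc finger transcription factor, read 2.94, 2.51 and 2.69 at room temperature and 2.36, 2.58 and 2.12 at 4 °C in wildtype, and 3.17, 2.81 and 2.96 at room temperature and 5.99, 5.56 and 5.64 at 4 °C in deficient arrays. The deficient cold arrays were higher by more than 2 units than all other 9 arrays, which lay between 2.12 and 3.17. The interaction was 3.11 ± 0.23 (adjusted p = 0.000133), kept with any 1 array left out. Npas2, a paralogue of the circadian factor Clock, read 1.70, 1.70 and 1.64 at room temperature and 2.55, 2.28 and 2.45 at 4 °C in wildtype, and 2.05, 1.99 and 1.70 at room temperature and 5.13, 5.77 and 6.08 at 4 °C in deficient arrays. It was higher at 4 °C in both genotypes without overlap, with the deficient cold arrays highest. Its room-temperature arrays lay under or near the array medians of 2.03 to 2.09, near the bottom of the scale, so that no fold is given. The interaction was 3.00 ± 0.28 (adjusted p = 0.000515). Npas2 was kept with any 1 array left out, and was the only 1 of 18 measured clock genes called (0.23% of all probe sets were called higher). The clock list had a median of -0.10, Clock itself an interaction of -0.67 ± 0.17 (adjusted p = 0.158) and Arntl, the shared partner of Clock and Npas2, 0.50 ± 0.57 (adjusted p = 0.849).

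Krt23, a keratin, and Il23a, the p19 subunit of interleukin 23, were near the bottom of the scale in 3 of the 4 groups. Krt23 read 1.80, 1.44 and 1.55 at room temperature and 1.66, 1.26 and 1.73 at 4 °C in wildtype, and 1.92, 1.91 and 1.72 at room temperature and 4.37, 4.01 and 4.04 at 4 °C in deficient arrays. Il23a read 1.75, 1.58 and 1.78 at room temperature and 1.53, 1.78 and 1.81 at 4 °C in wildtype, and 2.00, 1.75 and 1.73 at room temperature and 4.03, 4.05 and 4.26 at 4 °C in deficient arrays. In both genes the 9 other arrays read 2.00 or less, under the array medians of 2.03 to 2.09, and the deficient cold arrays alone stood clear. The interactions were 2.34 ± 0.22 (adjusted p = 0.000515) and 2.29 ± 0.17 (adjusted p = 0.000133), kept with any 1 array left out in each. Values so near the bottom do not give a reliable fold, since RMA compresses them.

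Stambpl1, a deubiquitinase, read 3.10, 3.02 and 3.67 at room temperature and 3.70, 3.29 and 3.32 at 4 °C in wildtype, and 4.05, 3.99 and 4.06 at room temperature and 6.58, 6.55 and 6.29 at 4 °C in deficient arrays, and its interaction was 2.27 ± 0.24 (adjusted p = 0.00169). The deficient cold arrays lay more than 2 units above every other array. Plscr2, a phospholipid scramblase family member, had 2.26 ± 0.30 (adjusted p = 0.00893), and Ccdc149 2.22 ± 0.23 (adjusted p = 0.00166). Ccdc149 read 2.82, 3.00 and 3.51 at room temperature and 2.25, 1.99 and 2.23 at 4 °C in wildtype, and 3.65, 3.40 and 3.53 at room temperature and 4.65, 4.94 and 4.80 at 4 °C in deficient arrays, lower in the cold in wildtype and higher in deficient arrays without overlap. These 3 genes were kept with any 1 array left out, but Ccdc149 lost its call with wildtype room-temperature replicate 3 moved to 4 °C (adjusted p = 0.318). The wildtype cold arrays of Ccdc149 lay near the array medians of 2.03 to 2.09, so that its size is not reliable. Rbm15b, an RNA-binding protein of the methylation complex of mRNA, read 3.93, 4.03 and 4.28 at room temperature and 4.29, 3.95 and 3.66 at 4 °C in wildtype, and 5.43, 5.33 and 4.25 at room temperature and 7.28, 7.90 and 7.20 at 4 °C in deficient arrays. Deficient cold arrays were the highest, and its interaction of 2.57 ± 0.40 (adjusted p = 0.0265) was lost without any wildtype room-temperature replicate, wildtype 4 °C replicate 2, or deficient 4 °C replicate 2 (adjusted p up to 0.0845). Hid1, a protein of secretory granule formation, read 2.03, 1.86 and 1.90 at room temperature and 1.71, 1.94 and 1.61 at 4 °C in wildtype, and 1.89, 1.84 and 1.64 at room temperature and 4.09, 3.43 and 2.88 at 4 °C in deficient arrays. All arrays but the deficient cold ones were at or under the array medians, as for Krt23 and Il23a, so that its size is not reliable. Its interaction of 1.85 ± 0.32 (adjusted p = 0.0356) was kept only without deficient 4 °C replicate 1 or 3 (adjusted p up to 0.099 otherwise), and with values floored at the array median it was not called (adjusted p = 0.166). Abcc4, a transporter that exports cyclic nucleotides, read 6.19, 6.42 and 6.55 at room temperature and 5.13, 5.00 and 5.33 at 4 °C in wildtype, and 6.29, 7.29 and 6.34 at room temperature and 7.08, 7.02 and 7.22 at 4 °C in deficient arrays. It was lower in the cold in wildtype without overlap, and the deficient groups overlapped. Its interaction of 1.70 ± 0.31 (adjusted p = 0.0468) was kept only without wildtype 4 °C replicate 3 or deficient room-temperature replicate 2 (adjusted p up to 0.117 otherwise). Jpt2 had 1.69 ± 0.20 (adjusted p = 0.004), kept with any 1 array left out. Gclc, the catalytic subunit of the rate-limiting enzyme of glutathione synthesis, was the 1 call among 21 oxidative stress genes (0.23% of all probe sets were called higher). Its interaction of 1.13 ± 0.19 (adjusted p = 0.0294) was kept only without wildtype room-temperature replicate 1, wildtype 4 °C replicate 3, or deficient room-temperature replicate 2 (adjusted p up to 0.0845 otherwise).

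The lower interactions were led by genes that cold raised strongly in wildtype. Plk3, a polo-like kinase induced by stress, read 2.99, 3.03 and 3.68 at room temperature and 7.94, 7.71 and 8.02 at 4 °C in wildtype, and 3.59, 3.31 and 4.02 at room temperature and 5.16, 5.28 and 5.27 at 4 °C in deficient arrays. Cold raised it 25.2-fold in wildtype and 3.03-fold in deficient arrays, without overlap in either genotype. The interaction was -3.06 ± 0.28 (adjusted p = 0.000515), kept with any 1 array left out. Atf3, a stress-induced transcription factor, read 3.67, 3.30 and 3.14 at room temperature and 7.64, 6.92 and 6.75 at 4 °C in wildtype, and 4.67, 3.91 and 4.51 at room temperature and 6.26, 5.63 and 5.33 at 4 °C in deficient arrays. It was 13.3-fold up in wildtype and 2.6-fold in deficient arrays, an interaction of -2.36 ± 0.40 (adjusted p = 0.0314), kept only without wildtype 4 °C replicate 3, deficient room-temperature replicate 2, or deficient 4 °C replicate 1 (adjusted p up to 0.101 otherwise). Ttpa, the alpha-tocopherol transfer protein, read 2.62, 3.51 and 2.55 at room temperature and 5.83, 5.88 and 5.32 at 4 °C in wildtype, and 2.43, 2.99 and 2.10 at room temperature and 3.25, 2.95 and 2.91 at 4 °C in deficient arrays. The deficient cold arrays overlapped both room-temperature groups and all wildtype cold arrays were above 5, with an interaction of -2.25 ± 0.38 (adjusted p = 0.0311), kept only without wildtype room-temperature replicate 2, wildtype 4 °C replicate 3, or deficient room-temperature replicate 2 or 3 (adjusted p up to 0.099 otherwise). With wildtype room-temperature replicate 3 moved to 4 °C these 3 interactions lost their calls (adjusted p = 0.781, 0.897 and 0.856). On Plk3 that array read 3.68, nearer to the other room-temperature wildtype arrays (2.99 and 3.03) than to the wildtype cold arrays.

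Mavs and Ppara were lower in deficient cold arrays than in any other array. Mavs, the mitochondrial adaptor of RNA sensing, read 8.60, 8.48 and 8.61 at room temperature and 9.001, 8.52 and 9.13 at 4 °C in wildtype, and 8.51, 8.52 and 8.37 at room temperature and 7.02, 6.82 and 7.23 at 4 °C in deficient arrays. All 3 deficient cold arrays lay below the 9 others, and the interaction was -1.76 ± 0.22 (adjusted p = 0.00625), kept with any 1 array left out. Ppara, the nuclear receptor that drives fatty acid oxidation genes, read 7.14, 7.06 and 7.26 at room temperature and 7.19, 6.68 and 6.81 at 4 °C in wildtype, and 7.42, 6.89 and 7.59 at room temperature and 5.48, 5.36 and 5.35 at 4 °C in deficient arrays. The deficient cold arrays lay below all others, 3.74-fold lower than at room temperature, and the wildtype groups overlapped, 1.2-fold lower. The interaction of -1.64 ± 0.25 (adjusted p = 0.0188) was lost without wildtype room-temperature replicate 1 or 2, deficient room-temperature replicate 1, or deficient 4 °C replicate 2 or 3 (adjusted p up to 0.0793), and was the 1 call among 30 measured genes of the thermogenic program. Angptl8, an inhibitor of lipoprotein lipase, read 6.19, 6.34 and 6.35 at room temperature and 6.66, 6.64 and 6.90 at 4 °C in wildtype, and 7.02, 7.12 and 6.80 at room temperature and 5.76, 6.06 and 6.35 at 4 °C in deficient arrays. Its direction in the cold was up in wildtype and down in deficient arrays, with -1.36 ± 0.21 (adjusted p = 0.0235), lost without wildtype room-temperature replicate 1 or 2, wildtype 4 °C replicate 1, deficient room-temperature replicate 1, or deficient 4 °C replicate 2 (adjusted p up to 0.0845). Sh2b2, an adaptor of the insulin receptor, had -1.49 ± 0.27 (adjusted p = 0.0391), kept only without wildtype 4 °C replicate 2 or deficient room-temperature replicate 2 (adjusted p up to 0.12 otherwise). Fgd4, an exchange factor for Cdc42, had -1.31 ± 0.21 (adjusted p = 0.0292), kept only without wildtype room-temperature replicate 3, wildtype 4 °C replicate 2 or 3, or deficient room-temperature replicate 2 (adjusted p up to 0.0869 otherwise).

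**Figure D3:**
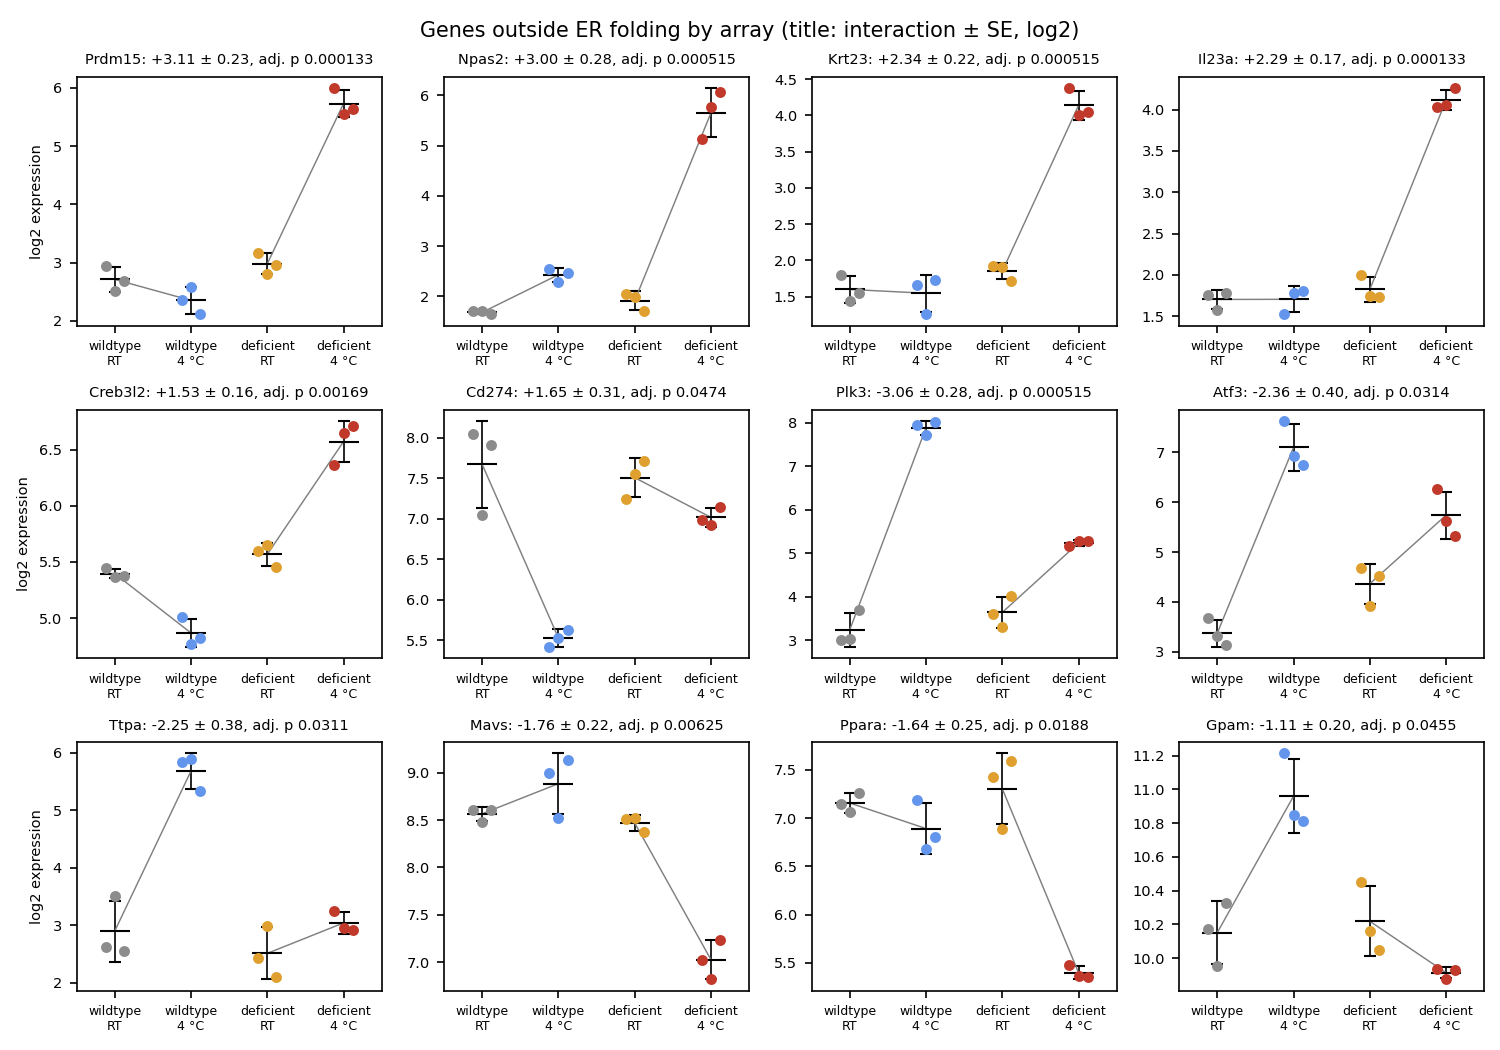
Log2 expression of 12 further genes on each array (points), with the group mean and SD (bars, n = 3), by genotype and temperature. Prdm15, Npas2, Krt23 and Il23a are highest in the deficient arrays at 4 °C, Plk3, Atf3 and Ttpa are highest in wildtype at 4 °C, and Mavs and Ppara are lowest in deficient arrays at 4 °C.

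Within the integrated stress response, the branch that runs through Atf4, 0 of 41 measured genes were called higher and 2 lower, with a median of -0.14. The shares called over all probe sets were 0.23% and 0.0765%. The 2 lower calls were Atf3 and Atf5, both transcription factors of this response. Atf5 read 6.89, 7.10 and 6.93 at room temperature and 8.18, 8.27 and 8.11 at 4 °C in wildtype, and 8.52, 8.72 and 8.58 at room temperature and 8.73, 8.50 and 8.75 at 4 °C in deficient arrays. At room temperature the deficient arrays already stood above all wildtype arrays, and cold raised only the wildtype arrays clear of their group, an interaction of -1.16 ± 0.16 (adjusted p = 0.00893), kept with any 1 array left out. Atf5 lost its call with wildtype room-temperature replicate 3 moved to 4 °C (adjusted p = 0.721), and the list held 0 calls. Atf4 had -0.69 ± 0.26 (adjusted p = 0.391) and Ddit3, which encodes Chop, 0.13 ± 0.20 (adjusted p = 0.898). Mthfd2, at -1.99 ± 0.40 (adjusted p = 0.0674), and Trib3, at -1.17 ± 0.40 (adjusted p = 0.325), also did not pass. Fgf21, a hormone induced by this response and by cold, read 1.57, 2.13 and 2.79 at room temperature and 6.67, 6.52 and 6.35 at 4 °C in wildtype, and 4.40, 2.90 and 4.06 at room temperature and 8.06, 8.27 and 7.86 at 4 °C in deficient arrays. It was higher at 4 °C in both genotypes without overlap, and the interaction was -0.08 ± 0.49 (adjusted p = 0.98), 95% interval -1.15 to 0.98. Wildtype room-temperature arrays read near the array medians of 2.03 to 2.09, so that the wildtype difference may be compressed and neither it nor the interaction gives a reliable size.

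Genes of heat production had more estimates below 0 than above. Of 30 measured members of the thermogenic program limma called Ppara alone, as lower (0.0765% of all probe sets). At an unadjusted p under 0.05, 1 was higher and 8 lower (5.14% and 4.63% of all probe sets). Of the 30 estimates 22 were below 0, and the median was -0.11. Ucp1 read 12.60, 12.38 and 12.63 at room temperature and 12.83, 12.69 and 12.71 at 4 °C in wildtype, and 12.77, 12.47 and 12.48 at room temperature and 12.68, 12.72 and 12.73 at 4 °C in deficient arrays. These values are near the top of the scale, where differences can be compressed. The groups overlapped in deficient arrays, and the interaction was -0.07 ± 0.16 (adjusted p = 0.937), 95% interval -0.42 to 0.28. Ppargc1a, the coactivator of mitochondrial and thermogenic genes, read 8.08, 7.26 and 8.17 at room temperature and 11.49, 11.31 and 10.94 at 4 °C in wildtype, and 8.42, 7.88 and 7.61 at room temperature and 9.61, 9.99 and 9.88 at 4 °C in deficient arrays. It was higher in the cold in both genotypes without overlap, 10.6-fold in wildtype and 3.62-fold in deficient arrays, and all wildtype cold arrays were above all deficient cold arrays. Its interaction of -1.56 ± 0.36 (adjusted p = 0.106) missed the threshold. Dio2, the enzyme that activates thyroid hormone, had -0.70 ± 0.49 (adjusted p = 0.715) on its brighter probe set and 0.70 on a second, dim one (adjusted p = 0.0803). Elovl3, a cold-induced fatty acid elongase, had -1.07 ± 0.31 (adjusted p = 0.216) and Pparg -0.92 ± 0.23 (adjusted p = 0.15), neither called. Of 26 cAMP feedback genes limma called 0 (2 higher and 1 lower unadjusted). Of 53 immediate early and AP-1 genes it called 1, Atf3, and Fos had 0.30 ± 0.57 (adjusted p = 0.92).

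Mitochondrial lists held no call. The unadjusted shares over all probe sets were 5.14% higher and 4.63% lower. Among 46 oxidative phosphorylation genes limma called 0 (0 at an unadjusted p under 0.05), estimates ran from -0.19 to 0.44 and the median was 0.07. Among 20 genes of mitochondrial fission and fusion it called 0 (0 higher and 1 lower unadjusted), with Mfn2, a mitofusin, at -0.09 ± 0.15, Opa1 at -0.14 ± 0.22 and Dnm1l, the fission GTPase, at -0.05 ± 0.15. Among 26 genes of contacts between ER and mitochondria it called 0 (2 and 2 unadjusted), with a median of 0.05. Among 32 fatty acid oxidation genes it called 0 (2 higher and 4 lower unadjusted), with a median of 0.02.

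Lipid synthesis leaned lower. Over all probe sets 0.0765% were called lower, and at an unadjusted p under 0.05 the shares were 5.14% higher and 4.63% lower. Of 38 lipogenesis genes 1 was called, 30 estimates were below 0 and the median was -0.42. The call was Gpam, the mitochondrial acyltransferase that starts glycerolipid synthesis, which read 10.17, 9.96 and 10.32 at room temperature and 11.21, 10.85 and 10.81 at 4 °C in wildtype, and 10.45, 10.16 and 10.05 at room temperature and 9.93, 9.87 and 9.93 at 4 °C in deficient arrays. Wildtype arrays were higher at 4 °C and deficient arrays lower without overlap, and the interaction of -1.11 ± 0.20 (adjusted p = 0.0455) was kept only without wildtype 4 °C replicate 3 (adjusted p up to 0.124 otherwise). Fasn, fatty acid synthase, read 10.86, 11.29 and 10.62 at room temperature and 11.25, 10.01 and 11.72 at 4 °C in wildtype, and 9.77, 11.06 and 9.46 at room temperature and 7.75, 8.90 and 9.62 at 4 °C in deficient arrays. Arrays of 1 group differed widely, and its interaction of -1.41 ± 0.74 (adjusted p = 0.592) did not pass, 95% interval -3.02 to 0.19. Acacb had -0.85 ± 0.16 (adjusted p = 0.0568), and Lpin3, a phosphatidate phosphatase, lay on the other side at 1.44 ± 0.29 (adjusted p = 0.064). Of 27 secreted factors limma called 1, Angptl8, with a median of -0.25. It called 0 of 33 insulin signalling genes (0 higher and 5 lower unadjusted, median -0.22; Sh2b2 is not on that list), 0 of 32 glycolysis genes (0 and 7, median -0.11), 0 of 28 lipolysis genes (0 and 2, median -0.05) and 0 of 19 cholesterol synthesis genes (3 and 1, median 0.15).

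Heat shock and interferon-stimulated genes had medians farther below 0 without a call. Of 19 cytosolic heat shock genes limma called 0 (0 higher and 9 lower at an unadjusted p under 0.05), with 15 estimates below 0 and a median of -0.42. At that unadjusted threshold 5.14% of all probe sets were higher and 4.63% lower. The list's median cold difference was 1.02 in wildtype and 0.37 in deficient arrays. Hsph1, an exchange factor of Hsp70, read 4.91, 5.05 and 5.04 at room temperature and 7.69, 7.57 and 7.12 at 4 °C in wildtype, and 5.18, 5.37 and 4.62 at room temperature and 6.46, 6.33 and 6.07 at 4 °C in deficient arrays. Cold arrays were above room-temperature arrays in both genotypes, and the wildtype cold arrays were above the deficient ones, with an interaction of -1.23 ± 0.27 (adjusted p = 0.0981). Stip1, which links Hsp70 to Hsp90, had -0.95 ± 0.19 (adjusted p = 0.0618). The near-identical copies Hspa1a and Hspa1b, which shared probes may not separate, had -1.88 ± 0.72 and -1.53 ± 0.66, with wildtype 4 °C replicate 1 at 6.93 and 6.75 and the other wildtype cold arrays under 5.

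All 23 interferon-stimulated genes had an estimate below 0, with a median of -0.76, and limma called 0 of them (0 higher and 10 lower unadjusted). Among all 22180 genes 11108 estimates were below 0, and 4.63% of all probe sets were lower unadjusted. Usp18, a brake on interferon signalling, read 3.04, 2.56 and 3.71 at room temperature and 4.10, 3.97 and 4.04 at 4 °C in wildtype, and 6.68, 4.33 and 6.13 at room temperature and 3.64, 3.78 and 4.77 at 4 °C in deficient arrays. In deficient arrays at room temperature replicates 1 and 3 were high and replicate 2 was near the wildtype cold arrays, and the spread gave an interaction of -2.58 ± 0.70 (adjusted p = 0.173). The list's median genotype difference was 0.98 at room temperature and 0.23 at 4 °C.

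**Figure D4:**
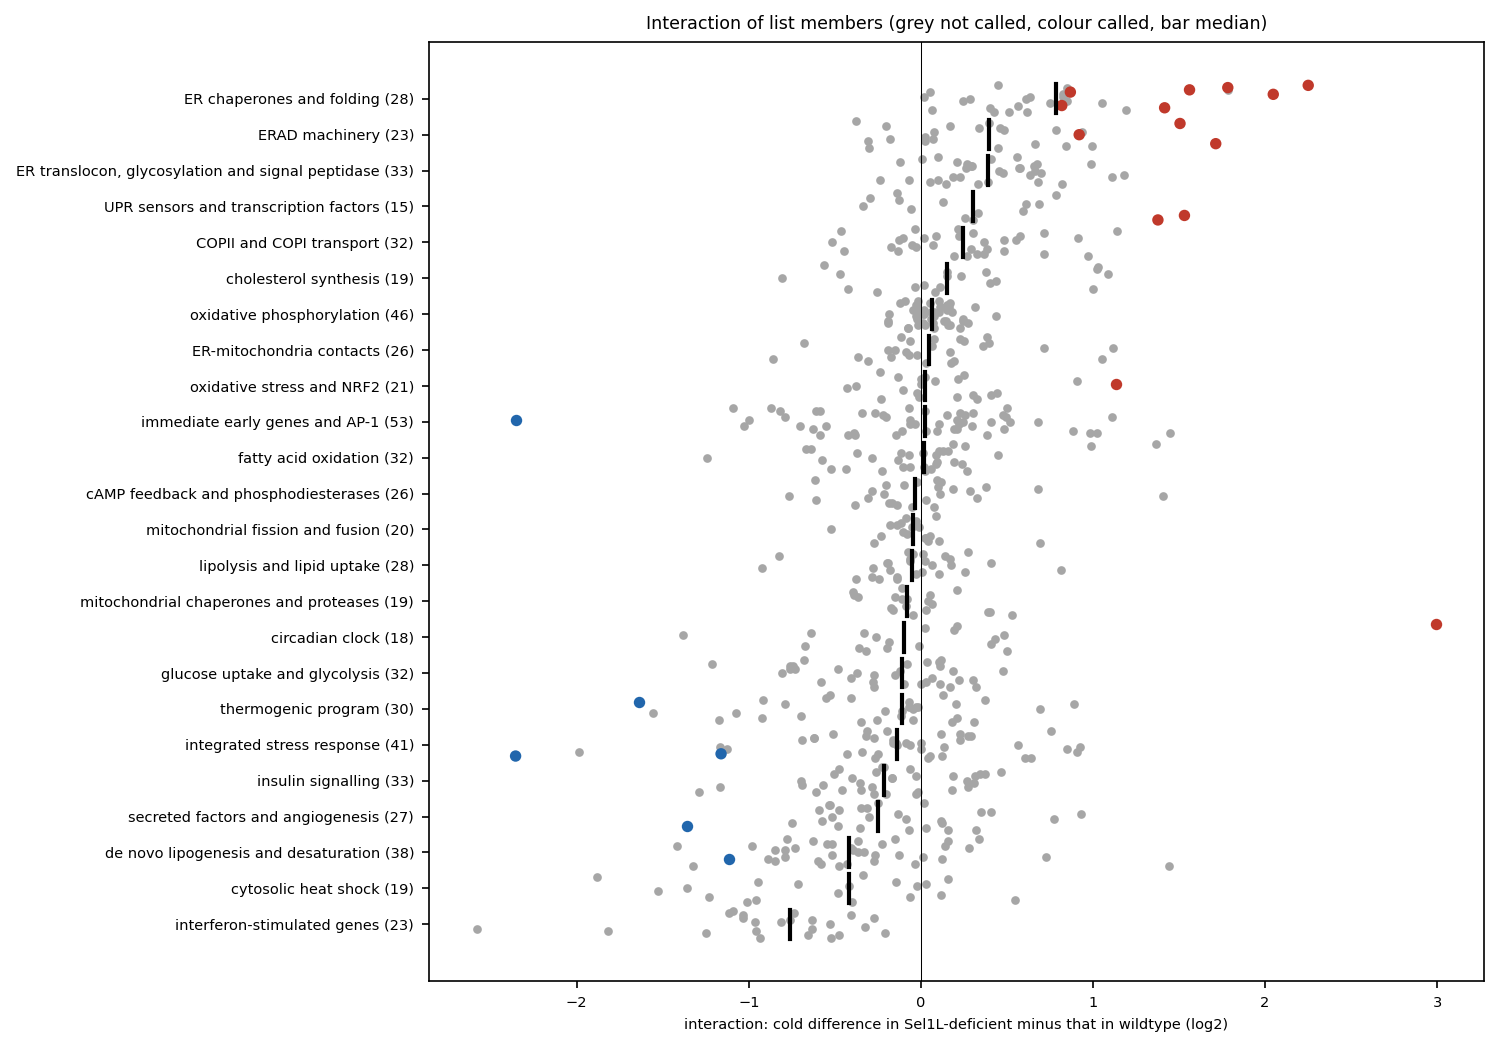
Interaction (log2) of each measured member of 24 functional gene lists, 1 row per list ordered by median (black bar), with genes called higher in red, called lower in blue and others in grey. The number of measured genes stands in brackets. ER folding (median 0.79) is at the top and interferon-stimulated genes (-0.76) at the bottom.

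Further lower calls were Elmod2, Exoc8, Irak2, Aspa and Tbcc. Elmod2 is a GTPase-activating protein (GAP), which promotes GTP hydrolysis by Arl GTPases. Elmod2 read 5.75, 5.68 and 5.93 at room temperature and 7.29, 7.42 and 7.40 at 4 °C in wildtype, and 6.77, 6.83 and 6.74 at room temperature and 7.14, 7.31 and 7.35 at 4 °C in deficient arrays. It was higher at 4 °C in both genotypes without overlap and already high in deficient arrays at room temperature. Its interaction was -1.10 ± 0.15 (adjusted p = 0.00893), kept with any 1 array left out but lost with wildtype room-temperature replicate 3 moved to 4 °C (adjusted p = 0.765). Exoc8, a subunit of the exocyst, had -1.08 ± 0.20 (adjusted p = 0.0455), kept only without wildtype 4 °C replicate 3 (adjusted p up to 0.113 otherwise). Irak2, a kinase of Toll-like receptor signalling, had -1.06 ± 0.18 (adjusted p = 0.0294), kept only without wildtype room-temperature replicate 3, wildtype 4 °C replicate 3, deficient room-temperature replicate 2, or deficient 4 °C replicate 1 (adjusted p up to 0.099 otherwise). Aspa, aspartoacylase, was at -1.04 ± 0.19 (adjusted p = 0.0468), kept only without wildtype 4 °C replicate 3 (adjusted p up to 0.12 otherwise), and Tbcc, a tubulin folding cofactor, at -0.92 ± 0.17 (adjusted p = 0.0468), kept only without wildtype 4 °C replicate 1 (adjusted p up to 0.125 otherwise).

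**Figure D5:**
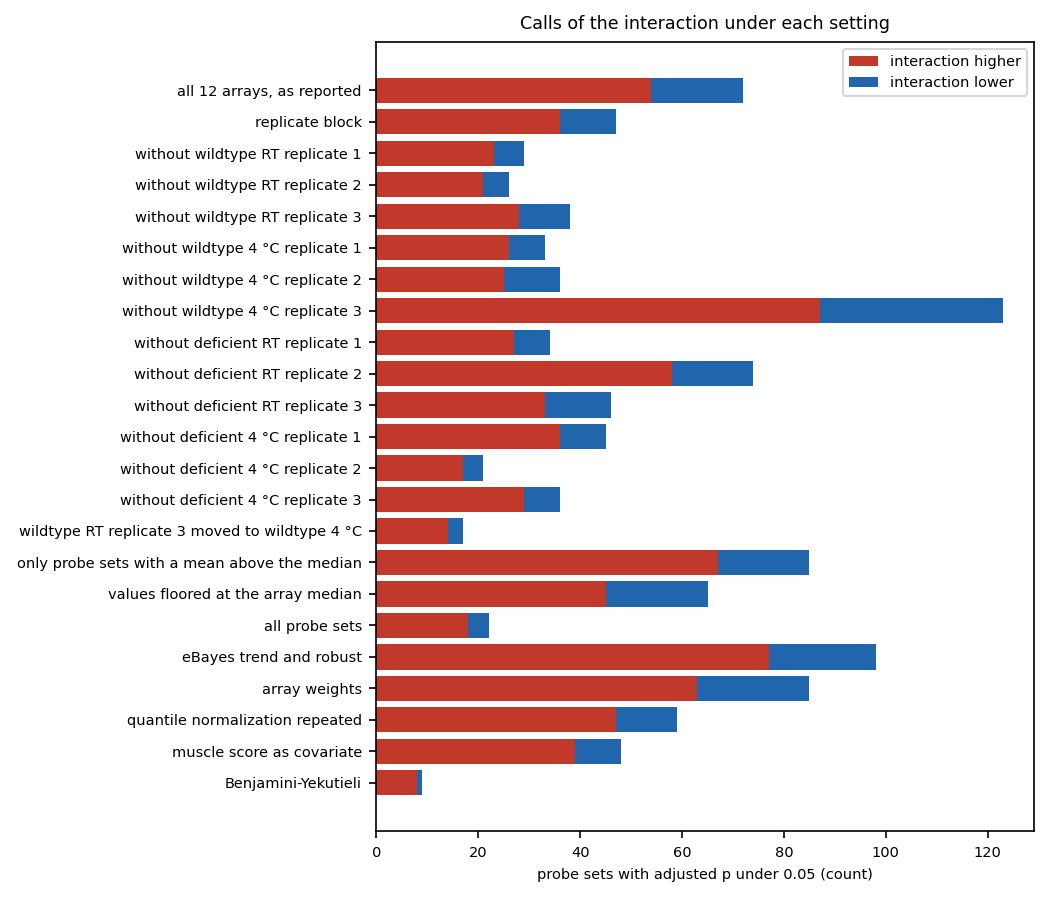
Number of probe sets with an interaction at an adjusted p under 0.05 (horizontal), higher in red and lower in blue, with all 12 arrays and under each alternative. The count runs from 9 under the Benjamini-Yekutieli adjustment to 123 without wildtype 4 °C replicate 3, against 72 as reported.

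Of the 72 called genes, 39 overlap another gene in the RefSeq annotation, and without probe positions their signal could not be assigned to 1 gene with certainty. These include Syvn1 with Mrpl49 (interaction 0.03), Plk3 with Tctex1d4 (-0.05), Angptl8 with Dock6 (0.09), Rbm15b with Dcaf1 (-0.14), Pdia3 with Catsper2 (0.18) and Ddx28 with Dus2 (0.84), none of these partners being called. Other partners have no value here, among them Nup62 and Il4i1b, which overlap Atf5. Of the called genes, Ccdc3, Riok2 and Tle1 have a second, dimmer probe set, with interactions of 0.29, -0.00080 and -0.12 that were not called.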

How the data were processed

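Total RNA of brown adipose tissue (100 ng per sample) was hybridised to whole-transcript arrays, 1 per sample, per the labels' protocols. The deposited table holds log2 expression values, for which RMA is named in the submitters' processing notes. No version of it is stated there. RMA normalizes arrays to one distribution and compresses very low values, and differences near the top of an array's scale can be compressed as well. Raw intensities were not used here, and the number of arrays limits the precision.

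Group means were modelled for the 23521 probe sets with exactly 1 symbol in the platform annotation (1814 had several and 16010 none), with limma 3.58.1 under R 4.3.3 (functions lmFit, contrasts.fit and eBayes; 8 residual and 4.45 prior degrees of freedom). P-values were Benjamini-Hochberg adjusted, and called means under 0.05. Values after ± are standard errors of the model, n is 3 arrays per group, and readings are log2. The script was tested on simulated data. The labels do not say how animals were chosen, so that p-values rest on the spread of these arrays alone. Replicate numbers are not said to pair animals, and the main fit used no pairing.

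Named genes were the 15 largest called interactions in each direction (symbols of the Rik or Gm kind passed over), called members of 24 functional lists, and Sel1l, Ucp1, Ppargc1a, Ppara, Dio2, Hspa5, Xbp1, Syvn1, Derl3, Sdf2l1, Atf4, Ddit3, Fgf21, Fasn, Atf3 and Fos. Other genes named were chosen after their values were seen. The comparison and the lists were chosen with earlier results of these data known. For a gene with several probe sets the brightest stands for it in lists. Of 860 list entries 793 were measured. Lists were described by counts and medians, without a test. Alternatives were leaving out each array, moving wildtype room-temperature replicate 3, a replicate block, brightness filters, all probe sets, other variance and normalization settings, a muscle score covariate and a stricter adjustment.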

Additional observations from a re-analysis of the deposited data

Results flagged for a closer look

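The cold difference differed between the genotypes for 72 probe sets by limma's test of the interaction. Of these, 9 had a cold difference that passed the test in each genotype on its own, in opposite directions. In Os9 (interaction 0.92), Ssh2 (1.16), Cdk20 (1.40), Ccdc149 (2.22), Creb3l2 (1.53), Fkbp14 (1.09), Tbcb (1.29) and Porcn (1.55) cold lowered the wildtype arrays and raised the deficient arrays, and in Fgd4 (-1.31) it did the reverse. With wildtype room-temperature replicate 3 moved to the 4 °C group, none of these 9 was called (adjusted p = 0.0613 for both Creb3l2 and Fgd4, and higher for the others). Among probe sets with several symbols or none, which the report does not use, 1 passed when all probe sets were tested together, that for Pdia4 (a disulfide isomerase of the ER) and Mir704, with an interaction of 1.91 (adjusted p = 0.00995). Groups of 3 arrays are too small for the check on single outlying samples.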

How the results depend on the processing

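Against 72 called probe sets (54 higher, 18 lower), leaving out 1 array gave 21 to 123 calls (17 to 87 higher, 4 to 36 lower), with the fewest without deficient 4 °C replicate 2 and the most without wildtype 4 °C replicate 3. Moving wildtype room-temperature replicate 3 to 4 °C gave 17 (14 higher, 3 lower), testing all probe sets 22 (18 and 4), and the Benjamini-Yekutieli adjustment 9 (8 and 1). The muscle covariate gave 48 (39 and 9). The counts were 85 with dim probe sets left out, 65 with values floored at the array median, 98 with trend and robust variance, 85 with array weights and 59 with quantile normalization repeated, all within 1.5 times of 72. In that order, 71, 48, 65, 72 and 57 of the 72 were among them. With floored values, the lost calls included Rbm15b, Creld2, Ero1b, Syvn1, Dnajc3, Wfs1, Atf3, Ttpa and Gpam. Among these genes limma's adjusted p ran from 0.0735 (Gpam) to 0.107 (Syvn1). Each of them read above the array medians of 2.03 to 2.09 on every array, so that flooring left their own values unchanged. The variance prior and the adjustment are shared with the other probe sets. Some alternatives also change the number of arrays or probe sets, and the cause of the differences in count was not tested. All 72 kept their sign in every alternative, and on the linear scale 0 changed sign. List medians moved with dim probe sets left out for T and B cell markers (-0.70 over 4 genes), neutrophil and mast cell markers (0.32 over 5) and Schwann cell markers (-0.40 over 3). With the replicate number as a block 47 probe sets were called (36 higher, 11 lower). The 18 correlations of same-numbered arrays, after removing group means, ran from -0.18 to 0.16 (median -0.01), 2 of them over 0.1. The median for arrays of different number was -0.005. With 3 arrays per group such correlations cannot settle whether animals were paired. Dim probe sets such as Il23a and Krt23, and bright ones such as Ucp1, limit the size that can be read.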

Other observations

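Some called genes outside every list, chosen after their values were seen, are known to act along the secretory route. Stx6, a SNARE of the trans-Golgi, read 7.12, 7.03 and 7.22 at room temperature and 7.21, 7.46 and 7.23 at 4 °C in wildtype, and 7.58, 7.52 and 7.64 at room temperature and 8.98, 8.72 and 8.90 at 4 °C in deficient arrays. The deficient cold arrays stood above all others, and the interaction was 1.11 ± 0.16 (adjusted p = 0.0116). Scfd2, a Sec1 family protein, had 1.09 ± 0.15 (adjusted p = 0.0111), and Hspa13, an Hsp70 family member of the ER, 1.34 ± 0.17 (adjusted p = 0.00633), both kept with any 1 array left out. Golim4, a Golgi membrane protein, had 1.22 ± 0.23 (adjusted p = 0.0468), kept only without wildtype 4 °C replicate 3 or deficient room-temperature replicate 2 (adjusted p up to 0.132 otherwise). Pam, which amidates secreted peptides, had 1.00 ± 0.16 (adjusted p = 0.0294), kept only without wildtype 4 °C replicate 3, deficient room-temperature replicate 1, or deficient 4 °C replicate 3 (adjusted p up to 0.0983 otherwise). Fkbp14, a collagen-folding isomerase of the ER, had 1.09 ± 0.18 (adjusted p = 0.0298), kept only without wildtype 4 °C replicate 1 or 3 (adjusted p up to 0.099 otherwise). Porcn, the ER acyltransferase of Wnt proteins, read 5.21, 5.72 and 5.37 at room temperature and 4.63, 4.72 and 4.59 at 4 °C in wildtype, and 5.46, 5.41 and 5.74 at room temperature and 6.28, 6.22 and 6.39 at 4 °C in deficient arrays. Cold arrays were lower in wildtype and higher in deficient samples without overlap, with an interaction of 1.55 ± 0.19 (adjusted p = 0.00625), kept with any 1 array left out. With wildtype room-temperature replicate 3 moved to 4 °C Porcn lost its call (adjusted p = 0.175), as did Golim4, Pam and Fkbp14, whereas Stx6, Scfd2 and Hspa13 were still called.

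Cd274, Id2 and Ndn had a higher interaction and were lower at 4 °C mainly in wildtype. With wildtype room-temperature replicate 3 moved to 4 °C all 3 lost their calls (adjusted p = 0.872, 0.68 and 0.78). Cd274, which encodes PD-L1, read 8.05, 7.05 and 7.91 at room temperature and 5.42, 5.53 and 5.63 at 4 °C in wildtype, and 7.25, 7.56 and 7.72 at room temperature and 6.99, 6.92 and 7.14 at 4 °C in deficient arrays. The cold difference was -2.14 in wildtype and -0.49 in deficient arrays on the log2 scale, an interaction of 1.65 ± 0.31 (adjusted p = 0.0474), kept only without wildtype room-temperature replicate 2 (adjusted p up to 0.118 otherwise). Id2, an inhibitor of helix-loop-helix factors, read 6.78, 6.83 and 6.83 at room temperature and 5.83, 5.87 and 5.80 at 4 °C in wildtype, and 6.80, 6.92 and 6.71 at room temperature and 6.68, 6.77 and 6.94 at 4 °C in deficient arrays. All 3 wildtype cold arrays were below the other 9, which lay between 6.68 and 6.94, and the interaction was 0.97 ± 0.14 (adjusted p = 0.0169), lost without wildtype room-temperature replicate 2 or deficient 4 °C replicate 2 (adjusted p up to 0.0595). Ndn, which encodes necdin, had 1.24 ± 0.20 (adjusted p = 0.0267), kept only without wildtype room-temperature replicate 1, wildtype 4 °C replicate 3, deficient room-temperature replicate 1 or 2, or deficient 4 °C replicate 1 (adjusted p up to 0.0845 otherwise).

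Ddx28, a helicase of mitochondrial ribosome assembly, was higher at 4 °C in both genotypes, 2.96-fold and 6.82-fold, with 1.20 ± 0.21 (adjusted p = 0.0344), kept only without wildtype 4 °C replicate 3 or deficient room-temperature replicate 3 (adjusted p up to 0.099 otherwise). It also lost its call with wildtype room-temperature replicate 3 moved to 4 °C (adjusted p = 0.475).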
